A study of Mus musculus with 10 samples.

Results

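Among the colon pieces of mice given azoxymethane and dextran sulfate sodium (AOM/DSS), 4 stood out by a high level of Hoxd13, a homeobox gene of the hindmost gut, and they are described here by whether they carried Krt5, the keratin of the basal layer of stratified squamous epithelium. Krt5-high distal pieces had at least 50 FPKM (a level of mapped fragments scaled for transcript length and library size) of both genes, and Krt5-low distal pieces had at least 50 FPKM of Hoxd13 and under 1 FPKM of Krt5. The rule found 4 of the 10 libraries of the series: ASA replicate 0 and ASA+CUR replicate 0 as Krt5-high, and CUR replicate 1 and ASA+CUR replicate 1 as Krt5-low. The choice was made on measured levels, so no p-value is given for any gene between the Krt5-high and Krt5-low pieces, and what follows about them is a description of 4 libraries.

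The series holds RNA-seq of colon from C57BL/6 mice in 5 labelled groups of 2 libraries each. ASA mice ate the AIN-93M diet with 0.02% aspirin (ASA), CUR mice ate it with 2% curcumin (CUR), and ASA+CUR mice ate it with 0.01% aspirin and 1% curcumin. Model mice ate the diet alone. These 4 groups all received AOM, a colon carcinogen, at 10 mg/kg at 6 weeks of age, and then 1.2% DSS, which injures the colon lining, in the drinking water for 7 days, whereas Control mice received saline and the diet alone. The labels name the AOM/DSS tissue as tumour and the Control tissue as colon, while the protocol describes the part of the colon left over once the proximal end and palpable tumours had been cut away. Nothing in the labels says if a group's 2 libraries are different animals or pieces of 1 colon.

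The mouse colon is lined by a single layer of columnar cells, and at the anus it meets a stratified squamous epithelium with basal, suprabasal and surface layers. Basal squamous cells pair the keratins Krt5 and Krt14 and depend on the transcription factor p63, encoded by Trp63. Suprabasal cells of soft internal linings such as the oesophagus make Krt4 and Krt13, whereas epidermal cells make Krt1 and Krt10. Squamous cells are rare in the colon proper, so a few genes can mark them in a bulk piece of tissue. In such bulk samples, fewer cells of a type and less RNA per cell cannot be told apart.

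The levels behind the choice lay closer to its limit for Hoxd13, where the lowest chosen piece had 65.2 FPKM, than for Krt5. Krt5 had 94.5 and 212 FPKM in the Krt5-high pieces (ASA replicate 0, then ASA+CUR replicate 0, the order kept below), against 0.0308 and 0.0662 FPKM in the Krt5-low pieces (CUR replicate 1, then ASA+CUR replicate 1). Hoxd13 had 75.7 and 87.7 FPKM in the Krt5-high pieces, against 71.6 and 65.2 FPKM in the Krt5-low pieces. The nearest library outside the choice was Model replicate 0, with 10.3 FPKM of Krt5 and 8.35 FPKM of Hoxd13. In the other 5 libraries Krt5 lay at 0.161 FPKM or below. Both Krt5-high pieces are replicate 0 of their group and both had aspirin in the diet, and both Krt5-low pieces are replicate 1, so the replicate number and the Krt5 difference cannot be told apart. The diet was the same in the 2 ASA+CUR libraries, which fell on either side of the choice.

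**Figure D1:**
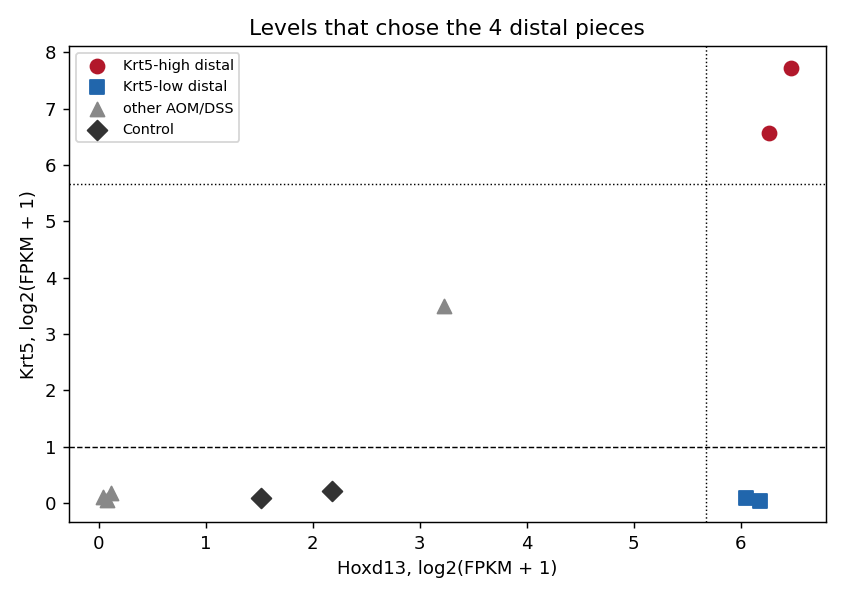
Krt5 against Hoxd13 on the log2(FPKM + 1) scale, 1 point per library. Dotted lines mark 50 FPKM and the dashed line 1 FPKM; the 4 distal pieces lie right of the vertical line, 2 above the upper line and 2 near 0, and Model replicate 0 (10.3 FPKM of Krt5) lies between.

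The rest of the transcriptome was close among the 4 pieces, but not always closer than to libraries outside the choice. Over the 14061 tested genes (at least 1 FPKM in at least 2 libraries) the correlation of log2(FPKM + 1) was 0.986 between the Krt5-high pieces, 0.964 between the Krt5-low pieces and 0.977 between the ASA+CUR libraries. It was 0.972 between CUR replicate 1 and Model replicate 0, and 0.974 between Model replicate 1 and ASA replicate 1. The sums of FPKM were 532097 and 517417 in the Krt5-high pieces, against 555275 and 515959 in the Krt5-low pieces, and read depth is unknown because FPKM removes it. A gene was called set apart when the nearest libraries of the 2 kinds differed by at least 2 on the log2(FPKM + 1) scale, that is, the lower Krt5-high piece against the higher Krt5-low piece or the reverse. By that measure 14 genes, 0.0996% of those tested, were higher in the Krt5-high pieces and 0, or 0%, were lower. At a distance of at least 1, 41 genes (0.292%) were higher and 18 (0.128%) were lower. Of the genes just inside and outside that limit, Has3 was at 1.01 and S100a3 at 0.99. Groups that merely did not overlap were common, with 11.8% of genes higher and 15% lower in both Krt5-high pieces.

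Of these 14 genes 5 were in the lists of squamous genes, Krt5 itself among them, and 3 were small nucleolar RNAs. Ltf, which encodes the iron-binding antimicrobial protein lactoferrin (chromosome 9, 111019292 to 111042766, GRCm38), had 166 and 335 FPKM in the Krt5-high pieces, against 1.23 and 1.35 FPKM in the Krt5-low pieces. Psca, a small surface protein of the Ly6 family (chromosome 15, 74714839 to 74717065), had 88.9 and 236 FPKM in the Krt5-high pieces, against 0.736 and 0.296 FPKM in the Krt5-low pieces. Model replicate 0 had 14.3 FPKM of Ltf and 15.4 FPKM of Psca, and ASA replicate 1 had 7.70 FPKM of Ltf. The distances between the nearest libraries were 6.15 for Ltf and 5.70 for Psca on the log2 scale, close to the 6.49 of Krt5 itself. Krt5 lies at 101707069 to 101712905 on the same chromosome as Psca. The other genes listed for mucous and serous glands, where lactoferrin is also made, gave no such difference: Dcpp1, Pip and Bpifa2 were listed at 0 in all 10 libraries, and Bpifb1 had 0.793 and 2.22 FPKM in the Krt5-high pieces, against 4.19 and 1.74 FPKM in the Krt5-low pieces.

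Calml3, a calmodulin-like protein of stratified epithelia, had 8.19 and 19.5 FPKM in the Krt5-high pieces, against 0.0994 and 0.107 FPKM in the Krt5-low pieces. Aqp3, a water and glycerol channel of basal keratinocytes, had 8.02 and 21.2 FPKM in the Krt5-high pieces, against 0.117 and 0.337 FPKM in the Krt5-low pieces. Spink5, an inhibitor of the proteases that shed surface squames, had 4.94 and 9.62 FPKM in the Krt5-high pieces, against 0.0135 and 0.0725 FPKM in the Krt5-low pieces. All 3 genes stayed under 1 FPKM in the Control libraries and in Model replicate 1, ASA replicate 1 and CUR replicate 0. In Model replicate 0 they were higher, with 4.14 FPKM of Calml3, 1.83 FPKM of Aqp3 and 1.56 FPKM of Spink5.

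Tmprss11d, a membrane-bound serine protease of airway and mouth epithelium, had 4.79 and 7.39 FPKM in the Krt5-high pieces, against 0.265 and 0.214 FPKM in the Krt5-low pieces. Its neighbours in the same family, Tmprss11b and Tmprss11g, also did not overlap, at distances of 1.69 and 1.65. Lypd2, another Ly6 family gene close to Psca on chromosome 15, had 6.82 and 4.88 FPKM in the Krt5-high pieces and was listed at 0 in both Krt5-low pieces. Krt6a, a keratin of wounded and fast-renewing squamous epithelium, had 66.6 and 105 FPKM in the Krt5-high pieces, against 9.22 and 13.3 FPKM in the Krt5-low pieces. Model replicate 0, ASA replicate 1 and CUR replicate 0 lay between, at 25.6, 25.0 and 32.6 FPKM of Krt6a.

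Ppbp, a chemokine that draws neutrophils and is stored in platelets, had 76.9 and 86.7 FPKM in the Krt5-high pieces, against 3.03 and 9.27 FPKM in the Krt5-low pieces. Calcb, a neuropeptide gene of the calcitonin family, had 14.3 and 22.8 FPKM in the Krt5-high pieces, against 1.91 and 1.62 FPKM in the Krt5-low pieces. Calcb also reached 14.7 FPKM in Control replicate 0, so its high level was not limited to pieces with Krt5. The remaining 3 of the 14 were the small nucleolar RNAs Snora28, Snora7a and Snora16a, short RNAs that lie within other genes. They were listed at 0 in both Krt5-low pieces, but Snora28 had 67.6 FPKM in Model replicate 0 and 86.0 FPKM in CUR replicate 0. An exact 0 for so short an RNA can be a failed estimate. Cbr2, a carbonyl reductase, was the next gene in order of distance, at 1.97, and it was present everywhere. It had 65.9 and 179 FPKM in the Krt5-high pieces, against 16.1 and 9.13 FPKM in the Krt5-low pieces, and from 13.6 to 24.9 FPKM in the other 6 libraries.

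The 2 Krt5-high pieces differed in the strength of the signal. Of the 41 genes at a distance of at least 1, 34 were higher in ASA+CUR replicate 0 than in ASA replicate 0, and the median ratio of their FPKM was 1.87, against 1.00 over all tested genes. The ratio ran from 0.155 for Sprr2d to 5.51 for Cnfn, both genes of the cornified envelope, the protein shell of surface squames. In 33 of the 41 genes the 2 Krt5-high pieces were the 2 highest of all 10 libraries. Model replicate 0 exceeded Model replicate 1 in 37 of the 41, compared with 52.9% of all tested genes.

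**Figure D2:**
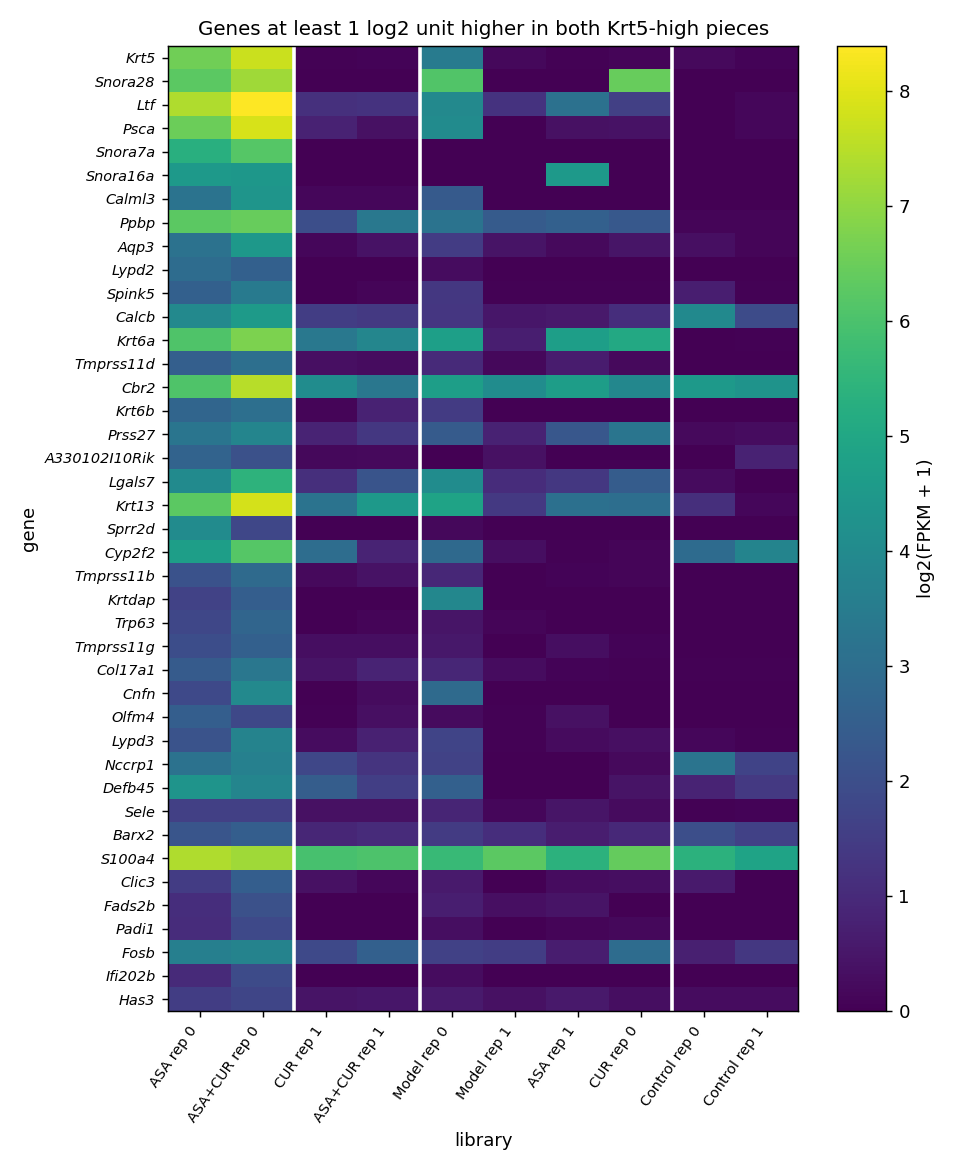
Heat map of log2(FPKM + 1) for the 41 genes whose nearest libraries were at least 1 apart, with libraries as columns (Krt5-high, Krt5-low, other AOM/DSS and Control pieces, left to right) and genes ordered by that distance. The 2 left columns are brighter than the next 2 for each gene, though low genes such as Sele stay dark, and Model replicate 0 shows an intermediate level for many genes.

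Basal-layer genes were not uniform. Trp63 had 2.42 and 5.64 FPKM in the Krt5-high pieces, against 0 and 0.0867 FPKM in the Krt5-low pieces. The table lists 8 Trp63 transcripts, and all of this signal in the Krt5-high pieces was assigned to the 5 that start at the internal start site (chromosome 16, 25801916, GRCm38), which encode the p63 forms lacking the first activation domain. The 3 transcripts from the first start site (25683765) were at 0 in both Krt5-high pieces. The division of fragments among transcripts is the authors' model estimate. Col17a1, a collagen of the hemidesmosomes that fix basal cells to their membrane, had 4.35 and 8.93 FPKM in the Krt5-high pieces, against 0.353 and 0.773 FPKM in the Krt5-low pieces. Lgals7, a galectin of stratified epithelia, had 15.1 and 42.0 FPKM in the Krt5-high pieces, against 1.20 and 3.54 FPKM in the Krt5-low pieces. It also reached 15.8 FPKM in Model replicate 0.

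Krt14, the usual partner of Krt5, followed another pattern. It had 117 and 198 FPKM in the Krt5-high pieces, against 27.8 and 95.2 FPKM in the Krt5-low pieces. It also had 51.7, 9.97, 57.3 and 59.3 FPKM in Model replicate 0, Model replicate 1, ASA replicate 1 and CUR replicate 0, and 0.164 and 0.589 FPKM in the Control libraries. On this per-length scale the ratio of Krt5 to Krt14 was 0.808 and 1.07 in the Krt5-high pieces, against 0.0011 and 0.000696 in the Krt5-low pieces, and 0.200 in Model replicate 0. Krt15, another basal keratin, had 22.8 and 64.5 FPKM in the Krt5-high pieces, against 13.1 and 16.2 FPKM in the Krt5-low pieces and 0.421 and 0.261 FPKM in Control. In 5 of the 8 AOM/DSS pieces Krt14 was thus at 9.97 FPKM or above while Krt5 was at 0.130 FPKM or below.

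Of the 17 tested basal-layer genes, 8 were higher without overlap and 0 were lower. The 8 include Krt5, which chose the pieces. They also include Trp63 and Col17a1, which passed the filter only through the Krt5-high pieces and had to differ. The median difference between the midpoints of the 2 kinds was 0.72 on the log2 scale. Over all tested genes 11.8% were higher and 15% lower without overlap, and the median was -0.01. Itgb4, an integrin chain that columnar cells also use, had 78.5 and 80.0 FPKM in the Krt5-high pieces, against 71.9 and 96.6 FPKM in the Krt5-low pieces. Its levels in the 2 kinds overlapped.

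Suprabasal keratins were mainly those of soft internal linings. Krt13 had 77.3 and 227 FPKM in the Krt5-high pieces, against 8.14 and 21.6 FPKM in the Krt5-low pieces. Krt4 had 19.2 and 85.1 FPKM in the Krt5-high pieces, against 15.6 and 3.82 FPKM in the Krt5-low pieces, so its nearest libraries were close. Krt6b had 5.69 and 7.28 FPKM in the Krt5-high pieces, against 0.0901 and 0.744 FPKM in the Krt5-low pieces. The epidermal keratin Krt1 stayed at 0.0869 and 0.743 FPKM in the Krt5-high pieces and was listed at 0 in both Krt5-low pieces. Krt10 had 1.13 and 2.20 FPKM in the Krt5-high pieces, against 1.26 and 1.04 FPKM in the Krt5-low pieces. Krt2 and Krt77, 2 further epidermal keratins, were listed at 0 in all 10 libraries.

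Model replicate 0, which the rule did not choose, carried a different squamous pattern. It had 10.3 FPKM of Krt1, 17.6 of Krt10, 13.6 of Krtdap (a keratinocyte differentiation protein) and 12.0 of Calm4 (a calmodulin-like protein of skin). The Krt5-high pieces had 2.2 and 4.65 FPKM of Krtdap and 0.0898 and 0.0822 FPKM of Calm4. Krt13 reached 28.4 FPKM in Model replicate 0, below both Krt5-high pieces. Other genes of the cornified envelope were mixed. Dmkn (9.24 FPKM), Sprr3 (3.23 FPKM) and Lor (2.02 FPKM) were also highest of all 10 libraries in Model replicate 0. Cnfn had 6.45 FPKM and Tgm1 2.13 FPKM there, both below ASA+CUR replicate 0.

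**Figure D3:**
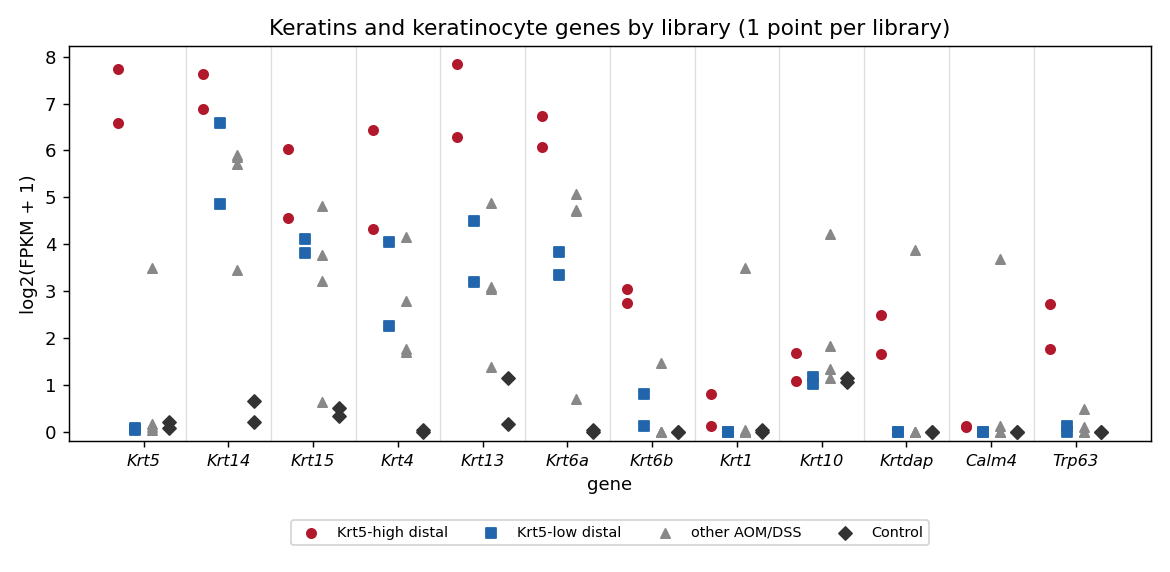
Keratins and other keratinocyte genes, log2(FPKM + 1), 1 point per library, with Krt5-high, Krt5-low, other AOM/DSS and Control pieces side by side for each gene. Krt5, Krt6b and Trp63 separate the Krt5-high pieces, Krt14 does not fall to 0 in any AOM/DSS piece, and Krt1, Krt10 and Calm4 peak in 1 of the other AOM/DSS pieces, Model replicate 0.

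The label of pieces without squamous epithelium was therefore only partly borne out by markers. In the Krt5-low pieces Trp63 was at 0 and 0.0867 FPKM and Krtdap was listed at 0, but Krt14, Krt15, Krt13, Krt4 and Krt6a were at 3.82 FPKM or above in both. In the Krt5-high pieces the desmosomal cadherin Dsg3 had 2.77 and 7.01 FPKM, against 1.40 and 4.34 FPKM in the Krt5-low pieces. Sprr3 and Lor, markers of the cornified envelope, did not exceed 1.11 FPKM in any of the 4 pieces. The names Krt5-high and Krt5-low are used for that reason.

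Of 46 listed cornified envelope genes, 43 were measured, 20 were tested, 12 were higher without overlap and 0 were lower, beside 11.8% and 15% of all tested genes. Tgm1, the transglutaminase that crosslinks the envelope, had 7.49 and 13.5 FPKM in the Krt5-high pieces, against 1.70 and 4.07 FPKM in the Krt5-low pieces. Cnfn had 2.59 and 14.3 FPKM in the Krt5-high pieces, against 0 and 0.192 FPKM in the Krt5-low pieces. Sprr1a, a small proline-rich envelope protein, had 43.2 and 54.7 FPKM in the Krt5-high pieces, against 26.6 and 123 FPKM in the Krt5-low pieces. The envelope plakin Evpl had 13.6 and 17.8 FPKM in the Krt5-high pieces, against 11.5 and 10.7 FPKM in the Krt5-low pieces. The near-identical Sprr2 genes share reads, so the values of single Sprr2 genes are uncertain.

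The counts without overlap in the other squamous lists also stand beside 11.8% of all tested genes higher and 15% lower. Of 10 tested desmosome genes 2 were higher without overlap, with Dsg2 at 102 and 123 FPKM in the Krt5-high pieces, against 104 and 114 FPKM in the Krt5-low pieces. Of 13 tested transcription factors 7 were higher and 3 lower without overlap, and Barx2, a homeobox factor, had 3.63 and 4.75 FPKM in the Krt5-high pieces, against 0.883 and 1.03 FPKM in the Krt5-low pieces. Of 6 tested barrier lipid genes 1 was higher and 2 were lower, with a median of -0.23. Cytokine and defence genes of squamous cells were higher in 5 and lower in 2 of 13, with a median of 0.23, and junction and channel genes were higher in 3 and lower in 1 of 12, with a median of 0.09. Over all squamous lists, 105 of 179 measured genes were tested, 44 (43 without Krt5) were higher and 10 lower without overlap, and the median midpoint difference was 0.28. A low gene that passed the filter only through the Krt5-high pieces had to differ, so these counts carry no support of their own.

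Of 8 tested proteases and inhibitors, 3 were higher and 2 lower without overlap, with a median of -0.04, again beside 11.8% and 15% of all tested genes. Prss27, a membrane-anchored protease of stratified epithelia, had 8.57 and 13.1 FPKM in the Krt5-high pieces, against 0.768 and 1.58 FPKM in the Krt5-low pieces. It also had 8.66 FPKM in CUR replicate 0, 4.33 FPKM in Model replicate 0 and 3.84 FPKM in ASA replicate 1. Among kallikreins, proteases of the epidermis, Klk8 was the tested member, with 1.10 and 1.00 FPKM in the Krt5-high pieces, against 1.1 and 1.11 FPKM in the Krt5-low pieces and up to 3.20 FPKM elsewhere. Klk5 was listed at 0 in all 10 libraries and Klk7 in all 4 distal pieces. Lypd3, a Ly6 family protein of suprabasal cells listed with defence genes, had 3.40 and 12.5 FPKM in the Krt5-high pieces, against 0.214 and 0.690 FPKM in the Krt5-low pieces.

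The genes most like Krt5 over all 10 libraries were found by the correlation of log2(FPKM + 1). They were Psca (r = 0.995), Calml3 (0.991), Aqp3 (0.986), Spink5 (0.985), Tmprss11b (0.982), Krt6b (0.978), Tmprss11d (0.975), Trp63 (0.967), Sele (0.964) and Tmprss11g (0.961). Each of these values rests on 2 or 3 libraries with high levels and is a description only. Sele, the endothelial adhesion molecule E-selectin, had 2.02 and 2.03 FPKM in the Krt5-high pieces, against 0.294 and 0.292 FPKM in the Krt5-low pieces. The correlation of Krt14 with Krt5 was 0.551.

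Promoters are shown for Krt5, the gene of the choice, and for Krt13 and Tmprss11d, which moved with Krt5 and hold a TGANTCA motif. Krt13 has 2 annotated starts, and the first is shown. Each is the 250 bases before an annotated start in RefSeq (GRCm38.p6), read 5′ to 3′ on the gene's strand, here the minus strand. Capitals mark matches, on either strand, to TGANTCA, the AP-1 motif, or to the half-site of the p53 family that p63 belongs to. The Krt14 window was also searched, held neither motif and is not shown.
Krt5 (chr15:101712906-101713155): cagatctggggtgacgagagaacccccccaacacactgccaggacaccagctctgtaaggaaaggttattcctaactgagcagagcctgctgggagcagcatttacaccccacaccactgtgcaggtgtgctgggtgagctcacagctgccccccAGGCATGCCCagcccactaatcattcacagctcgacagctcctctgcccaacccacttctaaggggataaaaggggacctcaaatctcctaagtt
Krt13 (chr11:100121567-100121816): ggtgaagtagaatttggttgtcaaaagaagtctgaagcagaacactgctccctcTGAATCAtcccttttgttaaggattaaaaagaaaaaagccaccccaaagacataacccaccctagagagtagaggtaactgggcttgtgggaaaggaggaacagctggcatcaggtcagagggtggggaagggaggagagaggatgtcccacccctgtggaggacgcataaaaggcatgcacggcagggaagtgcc
Tmprss11d (chr5:86373388-86373637): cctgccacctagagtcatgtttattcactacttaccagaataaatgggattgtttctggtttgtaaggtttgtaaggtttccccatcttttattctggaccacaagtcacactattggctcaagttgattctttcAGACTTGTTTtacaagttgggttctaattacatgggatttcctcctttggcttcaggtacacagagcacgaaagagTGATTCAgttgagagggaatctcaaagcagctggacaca

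The Krt5 window held the half-site in capitals, starting at position -95 from the annotated start. Of the 41 genes, 26 had promoters in the table, in 27 windows. TGANTCA was in 7 of these windows (25.9%), against 6.75% of all 32851 windows of the same length. Krt13 counts among the 7 through both of its starts. The half-site was in 5 windows (18.5%), against 7.13%. TATAAA was in 25.9%, against 12.4%, and CACCC was in 63.0%, against 52.0%. No motif of the 4 contains another, and both strands were searched. The genes were chosen on their levels, and a match in letters is not a bound site.

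Genes lower in the Krt5-high pieces were fewer and of another kind. Alox15, a lipoxygenase that oxygenates arachidonic acid, had 3.82 and 5.63 FPKM in the Krt5-high pieces, against 44.3 and 19.0 FPKM in the Krt5-low pieces. Its nearest libraries differed by -1.59 on the log2 scale. Slc7a8, an amino acid transporter, had 10.3 and 9.34 FPKM in the Krt5-high pieces, against 27.7 and 34.0 FPKM in the Krt5-low pieces. Cdkn2a, which encodes cell cycle inhibitors, had 5.66 and 9.78 FPKM in the Krt5-high pieces, against 25.6 and 29.7 FPKM in the Krt5-low pieces, and was listed at 0 in both Control libraries. Gstm7, a glutathione transferase, had 10.9 and 13.2 FPKM in the Krt5-high pieces, against 41.8 and 31.9 FPKM in the Krt5-low pieces. In 14 of the 18 genes both Krt5-low pieces lay within the range of the 6 libraries outside the choice.

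Alpha-defensins, antimicrobial peptides of Paneth cells, made up 6 of the 18 lower genes. Of 18 tested, 16 were lower without overlap and 0 were higher, beside 15% and 11.8% of all tested genes. Their median midpoint difference was -1.49. Their summed FPKM was 234 and 417 in the Krt5-high pieces, against 1441 and 909 in the Krt5-low pieces. It ran from 723 to 4692 in the other 4 AOM/DSS pieces and was 0 in both Control libraries. The defensins are near-identical copies and share reads, so they are not separate results and their sum is firmer than any single gene. Lyz1, the lysozyme of Paneth cells, had 1021 and 897 FPKM in the Krt5-high pieces, against 1193 and 989.8 FPKM in the Krt5-low pieces, so its 2 kinds overlapped. Of the 9 genes of the Paneth cell list 5 were lower without overlap, all of them alpha-defensins, and the other 4 (Lyz1, Mmp7, Pla2g2a and Itln1) overlapped, with midpoint differences from -0.19 to 0.04.

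**Figure D4:**
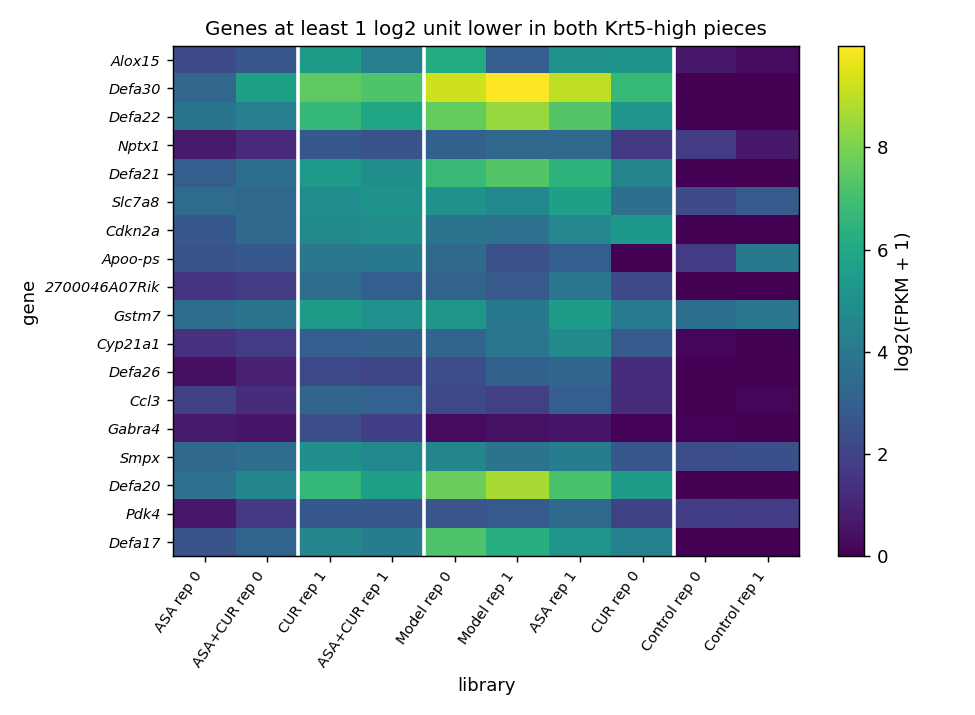
Heat map of log2(FPKM + 1) for the 18 genes whose nearest libraries were at least 1 lower in the Krt5-high pieces, with columns as Krt5-high, Krt5-low, other AOM/DSS and Control pieces. The summed alpha-defensins were 234 and 417 FPKM in the 2 left columns, against 1441 and 909 FPKM in the next 2.

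The counts for the colon's own epithelium are read beside the 11.8% of all tested genes that were higher and the 15% that were lower without overlap. Krt8, the main keratin of columnar cells, had 2714 and 2942 FPKM in the Krt5-high pieces, against 2674 and 2864 FPKM in the Krt5-low pieces. The keratins of simple epithelia were higher in 1 and lower in 1 of 6, with a median of -0.01. Of 22 absorptive colonocyte genes 1 was higher and 3 were lower without overlap, near the share of all genes, with a median of -0.14. Car4, a carbonic anhydrase of these cells, differed more within the Krt5-low pieces than between the kinds, with 27.2 and 31.7 FPKM in the Krt5-high pieces, against 158 and 14.2 FPKM in the Krt5-low pieces. Goblet cell genes were lower in 4 of 13 and higher in 0, with a median of -0.22. Of 18 Wnt target genes 8 were lower and 1 higher without overlap, with a median of -0.31; Apcdd1, a membrane inhibitor of Wnt, had 63.5 and 109 FPKM in the Krt5-high pieces, against 162 and 179 FPKM in the Krt5-low pieces. Of 20 cell cycle genes 0 separated the 2 kinds, and likewise 0 of 11 enteroendocrine genes and 0 of 8 genes of distal sodium transport. Tuft cell genes were lower in 2 of 7 and higher in 0.

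Among other cells, against the same 11.8% and 15% of all tested genes, fibroblast and matrix genes were higher without overlap in 10 of 15 and lower in 1, with a median of 0.39. Col1a1, a chain of collagen I, had 210.4 and 153 FPKM in the Krt5-high pieces, against 95.7 and 122 FPKM in the Krt5-low pieces. It ran from 81.0 to 202 FPKM in the other 4 AOM/DSS pieces. The summed fibroblast and matrix list was 1740 and 1623 FPKM in the Krt5-high pieces. These sums lay within the range of the other 4 AOM/DSS pieces, from 1002 to 2075 FPKM. B and plasma cell genes were lower in 5 of 8 and higher in 0, with a median of -0.78, and Cd79a, part of the B cell receptor, had 3.96 and 3.73 FPKM in the Krt5-high pieces, against 19.3 and 6.57 FPKM in the Krt5-low pieces. The summed smooth muscle list was 729 and 923 FPKM in the Krt5-high pieces, against 1001 and 828 FPKM in the Krt5-low pieces, from 786 to 1582 FPKM in the other 4 AOM/DSS pieces, and 12319 and 7690 FPKM in Control. Of its 15 genes 1 was lower and 0 higher without overlap. Enteric neuron and glia genes were higher in 4 and lower in 2 of 14, and fat cell genes were higher in 1 of 6. Of 9 neutrophil genes 1 was lower, as was 1 of 12 macrophage genes, and 0 were higher. T cell genes were higher in 1 and lower in 1 of 9, and mast cell genes were lower in 2 of 10. The counts of the myeloid, T cell and mast cell lists lay near or below the share of all genes. The part of these cells in the squamous genes was not tested.

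Markers of skin appendages and neighbouring organs were low but not all at 0. The hair follicle list summed to 3.70 and 6.5 FPKM in the Krt5-high pieces, against 7.01 and 4.30 FPKM in the Krt5-low pieces. These sums held Krt35, a hair keratin, with 2.22 and 4.45 FPKM in the Krt5-high pieces, against 5.90 and 1.94 FPKM in the Krt5-low pieces and at most 0.339 FPKM in the other 6 libraries. Krt71, another hair keratin, was listed at 0 in all 10. The sebaceous gland list summed to 1.10 and 0.786 FPKM in the Krt5-high pieces, against 1.60 and 1.41 FPKM in the Krt5-low pieces. The melanocyte gene Tyrp1 was listed at 0 in all 10 libraries, as were Svs4, Svs5 and Pbsn of the male accessory glands. The uroplakin list of the bladder lining summed to 5.68 and 6.20 FPKM in the Krt5-high pieces, against 10.7 and 5.51 FPKM in the Krt5-low pieces, with Upk1a and Upk3a present in all 4. Skeletal muscle genes, which the anal sphincter would carry, summed to 10.1 and 12.6 FPKM in the Krt5-high pieces, against 11.3 and 10.1 FPKM in the Krt5-low pieces, and Myh4 was listed at 0 in all 4. Tnni2, a troponin of fast muscle, had 5.30 and 7.35 FPKM in the Krt5-high pieces, against 5.12 and 5.91 FPKM in the Krt5-low pieces.

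Of 17 tested position genes 5 were higher and 3 lower without overlap, beside 11.8% and 15% of all tested genes, with a median of 0.01. The higher genes include Hoxd13, on which the pieces were chosen. Hoxb6 had 2.82 and 1.16 FPKM in the Krt5-high pieces, against 0.380 and 0.234 FPKM in the Krt5-low pieces. Hoxd12, the neighbour of Hoxd13, had 8.18 and 19.1 FPKM in the Krt5-high pieces, against 11.1 and 22.0 FPKM in the Krt5-low pieces, and did not exceed 0.855 FPKM in the other 6 libraries. Hoxb13 had 197 and 180.0 FPKM in the Krt5-high pieces, against 296 and 183 FPKM in the Krt5-low pieces. It had 94.7 FPKM in Model replicate 0, at most 27.9 FPKM in the other 3 AOM/DSS pieces, and 186 and 270 FPKM in Control. Hoxa13 ran from 10.9 to 20.6 FPKM over all 10 libraries. Cdx2, the intestinal homeobox factor, had 5.22 and 6.34 FPKM in the Krt5-high pieces, against 11.4 and 7.05 FPKM in the Krt5-low pieces, and from 61.1 to 139 FPKM in the other 6 libraries. By Hoxb13 the Control pieces would also count as distal, and by Hoxd13, at 3.52 and 1.86 FPKM, they would not.

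**Figure D5:**
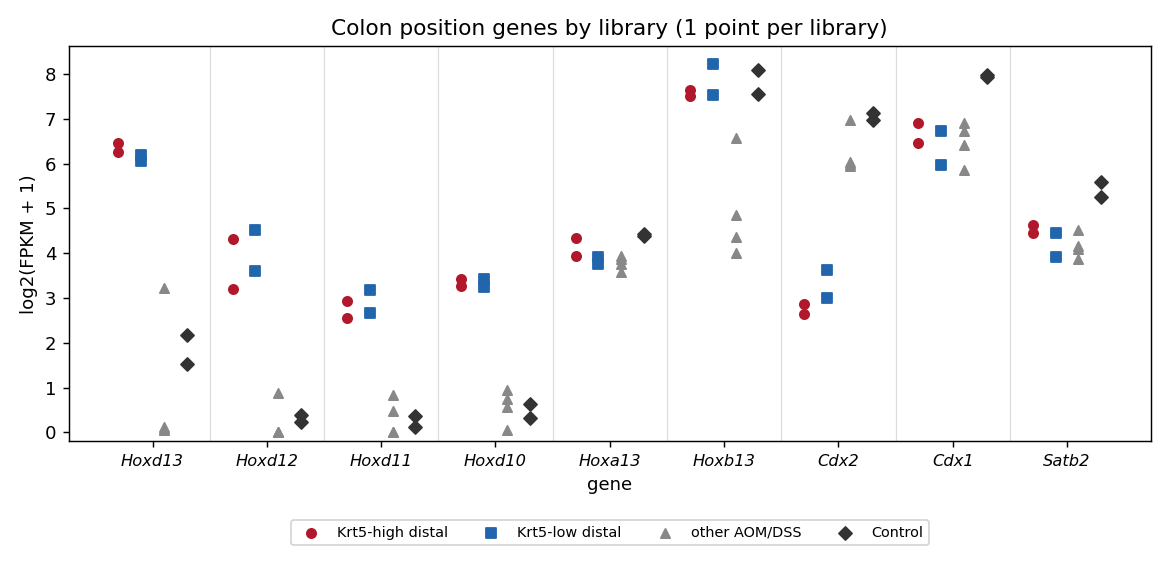
Colon position genes, log2(FPKM + 1), 1 point per library, with Krt5-high, Krt5-low, other AOM/DSS and Control pieces side by side for each gene. The Krt5-high and Krt5-low pieces share high Hoxd genes and low Cdx2, while Control pieces share their level of Hoxb13 but not of Hoxd13.

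The labelled diets were compared without the choice of pieces. The test used limma over all 10 libraries with Benjamini-Hochberg adjustment and called 2 features (0.0142%) in ASA against Model, 1 (0.00711%) in CUR against Model and 2 (0.0142%) in ASA+CUR against Model. At an unadjusted p under 0.05 there were 335, 684 and 1416 features in these comparisons. The 41 genes higher in the Krt5-high pieces were chosen for a difference between the 2 ASA+CUR libraries, which widens their spread in this test, so that 0 of them passed says nothing about the diets. Of the 105 tested genes of the squamous lists 0 passed limma's adjusted threshold, and 9, 13 and 34 had an unadjusted p under 0.05. Each group holds 2 libraries. These p-values measure only the spread between libraries of a group, pooled over all 5 groups and adjusted by limma with the intensity trend. The spread is wide for Krt5: 212 and 0.0662 FPKM in ASA+CUR and 94.5 and 0.0324 FPKM in ASA, against 10.3 and 0.130 FPKM in Model.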

How the data were processed

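The authors deposited a table of FPKM values per RefSeq transcript with 10 columns, matched to the libraries by the names in the labels. Per the submitters' processing notes, the tools were TopHat2 (2.0.9), Cuffdiff, bcl2fastq (2.17.1.14) and Bowtie2 (2.1.0.0), and the builds mm10 and GRCm38; their roles and the treatment of strand and multi-mapping reads are not given in the sources used here. Gene names for 29443 of 30073 transcripts came from RefSeq (GRCm38.p6) and for 179 from GENCODE; 451 kept their identifiers. FPKM was summed per gene (23488 rows), and 14061 rows that reached 1 FPKM in 2 or more libraries were tested. Read depth is unknown. Listed genes that no row named were not analysed here.

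Tests of labelled groups used limma 3.58.1 in R 4.3.3 on log2(FPKM + 1), with an intensity trend, 5 residual degrees of freedom and a threshold of 0.05; this scale understates changes of low genes. The steps were tested on simulated data. No test was run between the Krt5-high and Krt5-low pieces, whose log2 distance is between nearest libraries. The pieces and the gene lists were chosen with earlier results of these data known. Genes named were the fixed genes Krt5, Hoxd13, Krt14 and Trp63, the 6 highest members of each list, the 15 most distant genes in each direction and the 10 most like Krt5; further genes were named after their values were seen. Motifs were searched on both strands. No Langerhans cell or male accessory gland gene passed the filter. Some listed genes are not reported here.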

Additional observations from a re-analysis of the deposited data

How the results depend on the processing

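With a pseudocount of 0.1 in place of 1, 39 genes were set apart as higher in the Krt5-high pieces, 3 as lower, and 14 squamous list members as higher, in place of 14, 0 and 5. With a pseudocount of 5 these were 7 higher and 1 list member. That member was Krt5, the gene of the choice, so no other squamous list gene stayed set apart. At a distance of 1 they were 41 higher, 18 lower and 16 list members. Leaving out each of the 4 pieces gave 22 (without ASA+CUR replicate 0) to 32 (without ASA replicate 0) higher genes. It gave 3 (without ASA replicate 0) to 15 (without ASA+CUR replicate 1) lower genes. Squamous list members numbered 6 to 16. The 14 genes were kept in each of these settings except the pseudocount of 5, which kept 7; without a piece, fewer libraries have to differ. Without a filter, with median rescaling, or with the highest transcript of a gene, the count stayed at 14. Of the distances of 37 single genes, 28 moved by more than the spread within a kind with a pseudocount of 5, 20 with 0.1, and from 1 (without CUR replicate 1) to 23 (without ASA replicate 0) without a piece; 0 changed sign.

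Among labelled groups, CUR against Model called 0 with pseudocounts of 0.1 and 5, without a filter and with the replicate block, and 1 to 3 (3 without CUR replicate 1, 2 without CUR replicate 0) without single libraries of the groups compared. ASA against Model called 2 with the replicate block, 0 with a pseudocount of 5 and 0 (without ASA replicate 0) to 1 without single libraries. ASA+CUR against Model called 0 with a pseudocount of 5, 0 with the replicate block, and 0 (without ASA+CUR replicate 0) to 1 without single libraries; the cause was not tested. The replicate numbers showed no uniform pairing of the libraries. The correlations of replicate differences between groups ran from -0.214 (ASA with CUR) to 0.326 (ASA with ASA+CUR). A pairing of only some groups was not tested. Relative read depth is unknown, so the lowest values cannot be given a counting error.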

Other observations

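Further cornified envelope genes were high outside the distal pieces. Lce3b had 11.7 FPKM and Lce3a 1.21 FPKM in CUR replicate 0, and both were listed at 0 in the 4 distal pieces. In the same library Krt27, a keratin of the hair root sheath, had 9.12 FPKM, against 0.528 FPKM or less in the other libraries.

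Atp12a, the colonic proton and potassium pump, had 89.0 and 55.0 FPKM in the Krt5-high pieces, against 62.6 and 13.6 FPKM in the Krt5-low pieces and 0.897 to 10.9 FPKM in the other 4 AOM/DSS pieces. Control had 48.9 and 82.6 FPKM.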
